A study of Xenopus tropicalis with 2 samples.

Results

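Dense groups of peaks in the interiors of chromosomes 1 to 8 were examined in a genome occupancy profile of the tadpole tail of the frog Xenopus tropicalis. A peak was taken when 5 or more other peaks started within 10 kb of its own start, and when it lay more than 5 Mb from the first and the last peak of its chromosome. On chromosome 7 only starts above 12 Mb (12000000) counted. The choice used positions alone and no read numbers, though the peaks themselves are called from reads. It gave 3473 peaks, which is 2.79% of the 124349 peaks of the table and 4.89% of the 70984 interior peaks of these chromosomes. Successive chosen peaks whose starts lay at most 10 kb apart formed a cluster, and there were 748 clusters.

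Both libraries came from wildtype tadpoles reared at 23 °C, whose tail tip was cut off at Nieuwkoop-Faber stage 41, and carry a time of 0 hours after amputation in their labels. The cells of 1 library had the label No FACS (unsorted). Those of the other were labelled FACS (sorted), which means passed through a fluorescence-activated cell sorter. The labels gave no number of animals, no gated population and no name for the assay within the class of occupancy profiling. Each group held 1 library, so no difference could be set against the spread between preparations, and no test between conditions was possible. All intervals are 95% intervals for counting error only. Reads in peaks numbered 3176954 without sorting and 3111092 after it.

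Promoters and enhancers, the DNA stretches that start and tune transcription, are not spread evenly along vertebrate chromosomes, and several often lie together around genes that act in development. A peak caller marks each place where reads pile up above their surroundings, so a group of nearby peaks can mark such a stretch. No gene annotation of the genome build of the table was at hand. The clusters are therefore described by position and carry no gene names, and the labelled tissue could not be checked against marker genes.

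The clusters ranged from single peaks to stretches of 36 peaks. A single chosen peak made up 169 clusters, since a peak can have 5 neighbours that have fewer themselves. Another 305 clusters held 2 to 5 peaks and 220 held 6 to 9. There were 44 clusters of 10 to 19 peaks and 10 of 20 or more. The 274 clusters with at least 6 peaks held 67.1% of all cluster peaks and had a median length of 11420.5 bp, with a range of 3177 to 84554 bp. Together the 748 clusters covered 6090683 bp, 0.572% of the interior length. Within clusters the median distance from one start to the next was 1242 bp, against 9846 bp between neighbouring interior peaks in general, a difference that the choice by position fixes. Of the 2725 neighbouring pairs within clusters, 36.7% started 400 to 999 bp apart. Another 4.07% overlapped, so that some reads could count for both peaks of a pair. When the clusters were built again with only the first peak of each overlapping pair, there were 675.

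Clusters gathered towards the chromosome ends even inside the 5 Mb margin. Of the interior peaks 5 to 10 Mb from the outermost peak, 10.8% lay in clusters. That share was 5.74% at 10 to 20 Mb, 4.55% at 20 to 40 Mb and 3.20% beyond 40 Mb. The shares differed between the ends of a chromosome, as the plot of positions shows. At 5 to 10 Mb from the last peak of chromosome 3, 194 of 841 peaks (23.1%) lay in clusters, against 26 of 399 (6.52%) at its other end. On chromosome 4 the order was the other way, with 108 of 597 (18.1%) near the low end and 6 of 397 (1.51%) near the high end. The high ends of chromosomes 4 and 5 were the 2 end stretches with a smaller share than the same chromosome had beyond 40 Mb. Chromosome 8 had the most clusters for its length, 10.4 per 10 Mb, and chromosome 7 the fewest, 4.29. The longest stretch between clusters, 18790100 bp, lay on chromosome 1 from 125115383 to 143905482. The median gap between neighbouring clusters was 508376 bp, and 13.9% of the 740 gaps were under 50 kb.

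**Figure D1:**
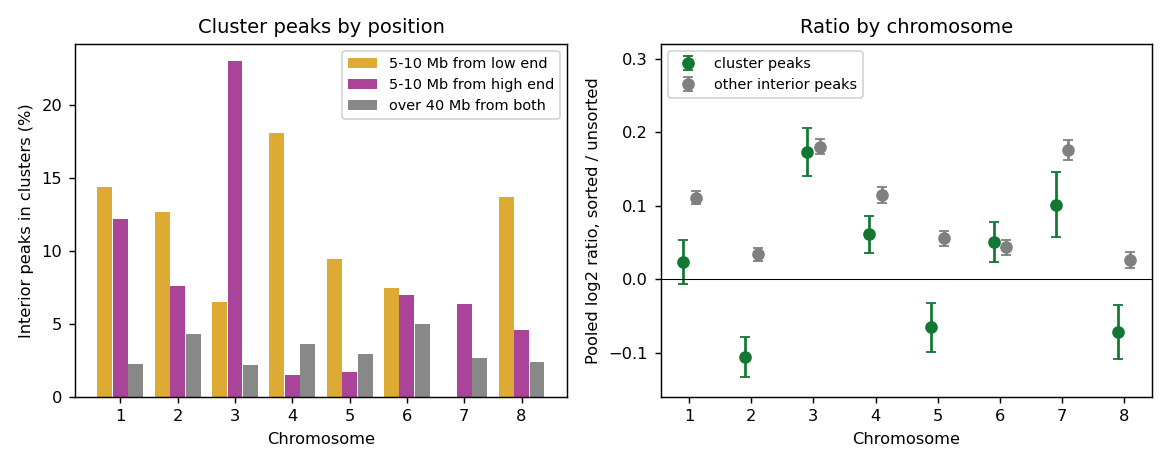
Left, percent of interior peaks that lay in clusters, per chromosome, for peaks 5 to 10 Mb from the low-numbered end (yellow), 5 to 10 Mb from the high-numbered end (purple) and over 40 Mb from both (grey). The low end of chromosome 7 has no bar because starts up to 12 Mb were left out. Right, pooled log2 ratio of sorted over unsorted reads with 95% counting intervals for cluster peaks (green) and other interior peaks (grey). Chromosome 3 reaches 23.1% at its high end, and its cluster peaks have the highest ratio of the 8 chromosomes, 0.17. Its other interior peaks have 0.18.

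Peaks in clusters held more reads than other interior peaks in both libraries. The median cluster peak had 22 unsorted and 23 sorted reads, against 13 and 14 for the 67511 other interior peaks. The mean of the summed reads was 78.7 against 35.1, a ratio of 2.24. The median of the summed reads was 45 against 26. The difference was seen on each of the 8 chromosomes, where the ratio of means ran from 1.51 on chromosome 8 to 2.96 on chromosome 4. Its size depended on position. At 5 to 10 Mb from the outermost peak the means were 53.8 in clusters and 50.8 elsewhere, and the medians 41 and 35. Beyond 40 Mb the means were 100 and 30.1, and the medians 51 and 24. Coverage went up with the number of neighbours, also within the clusters. A wide enriched stretch can be cut into several peaks, and its part in this was not tested. Peaks with 4 others within 10 kb, just outside the limit, had a median of 31 summed reads, and those with 5 others, just inside it, had 37. The median was 64 with 7 or 8 others and 117.5 with 9 to 15 others. Isolated interior peaks, with no other peak within 10 kb, had a median of 25. Of the cluster peaks, 7.54% had 200 or more summed reads, against 0.655% of the other interior peaks. Larger clusters were also more heavily covered per peak, with a median of 33 reads in clusters of 1 peak and 107.5 in those of 20 or more.

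**Figure D2:**
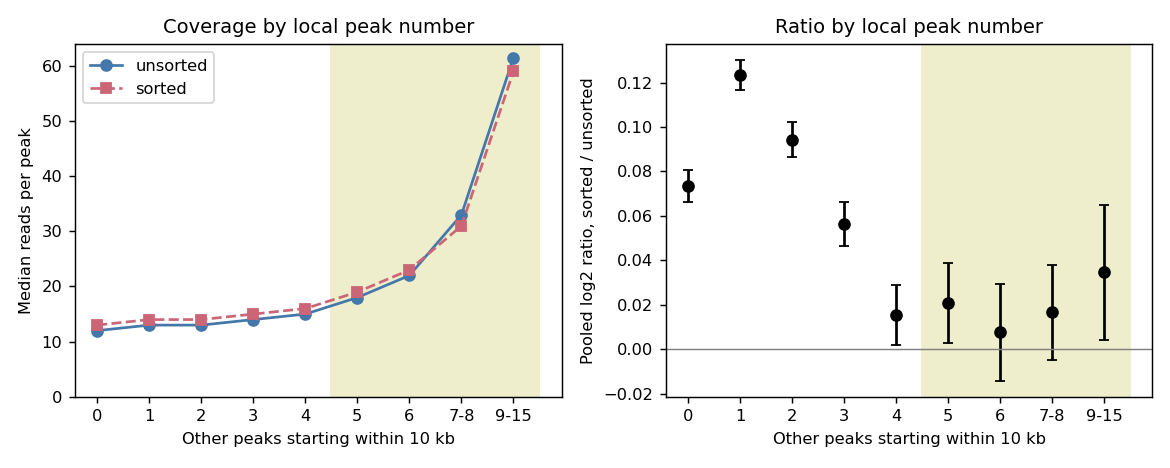
Left, median reads per interior peak in the unsorted (blue circles) and sorted (red squares) library by the number of other peaks that start within 10 kb. Right, pooled log2 ratio of sorted over unsorted reads with 95% counting intervals. The shaded classes are the cluster peaks, where median coverage reaches 61.5 unsorted and 59 sorted reads and the ratio stays between 0.0075 and 0.035.

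Pooled over all cluster peaks, both libraries took nearly the same share of their reads in peaks. The unsorted library had 137310 reads there, 4.32% of its total (4.30% to 4.34%), and the sorted library 136172, 4.38% (4.35% to 4.40%). The log2 ratio of sorted over unsorted shares was 0.018 (0.0074 to 0.029). Its sign depended on scaling, with -0.049 under TMM factors, -0.012 under DESeq2 size factors and 0.18 (0.16 to 0.19) when the 5000 most covered peaks set the scale. Without 7 clusters of chromosome 3 described further on it was 0.0039 (-0.0071 to 0.015). Other interior peaks had a log2 ratio of 0.087 (0.083 to 0.090), so the cluster peaks lay 0.069 lower (0.057 to 0.080 on the log2 scale, Woolf interval of the odds ratio). Scaling cannot change this difference. The cluster peaks lay 0.084 lower (0.073 to 0.096) without the 2 most covered interior peaks, which lie outside clusters. Peaks with 4 others within 10 kb, just outside the limit, had a log2 ratio of 0.015 (0.0019 to 0.029). A lower ratio was thus not particular to the clusters. With 1, 2 and 3 others the values were 0.12, 0.094 and 0.056. Isolated peaks had 0.073, and 0.13 without those 2 most covered peaks. At 5 to 10 Mb from the outermost peak the order was turned, with 0.070 (0.044 to 0.096) in clusters and 0.0052 (-0.0041 to 0.015) in other peaks, a difference of 0.065 (0.037 to 0.092). Without the 7 chromosome 3 clusters, the cluster value there was -0.016 (-0.044 to 0.012). In the 3 classes farther in, the cluster peaks were lower, by 0.089, 0.12 and 0.086. The cluster peaks had a lower ratio than other interior peaks on 6 chromosomes, where the interval of the difference excluded 0. On chromosomes 3 and 6 the differences were -0.0072 (-0.041 to 0.027) and 0.0068 (-0.022 to 0.036). On chromosome 2 the cluster peaks stood at -0.11 (-0.13 to -0.079) and on chromosome 3 at 0.17 (0.14 to 0.21). The other interior peaks of chromosome 3 had 0.18 (0.17 to 0.19). Without the 7 clusters, the cluster peaks of chromosome 3 had 0.056 (0.020 to 0.092), which is lower than these.

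The difference from other interior peaks was not the same at all levels of coverage. Peaks of 20 to 29 summed reads had a log2 ratio of 0.041 (-0.0022 to 0.085) in clusters and 0.12 (0.11 to 0.13) elsewhere. Those of 30 to 49 reads had a log2 ratio of 0.061 (0.032 to 0.090) in clusters and 0.16 (0.15 to 0.17) elsewhere. With 50 to 99 reads the values were 0.012 (-0.012 to 0.035) and 0.093 (0.084 to 0.10). At 100 to under 200 reads they came close, at 0.034 and 0.050, and the interval of the difference, -0.043 to 0.011, included 0. At 200 to under 400 reads the order was turned, with 0.037 (0.012 to 0.062) in 189 cluster peaks and -0.077 (-0.096 to -0.058) in 323 other peaks. Without the chromosome 3 clusters the former was 0.012 (-0.014 to 0.037). With 400 or more reads, the 73 cluster peaks had -0.062 (-0.089 to -0.036) and the 119 others -0.28 (-0.30 to -0.27). The latter came to -0.12 (-0.14 to -0.099) without the 2 most covered peaks, which alone held 33602 unsorted and 22037 sorted reads. The median ratio of single peaks in this class was 0.016 in clusters and -0.16 elsewhere. Weighted over the classes by the reads of the cluster peaks, the difference was 0.018 (0.0054 to 0.030), and -0.0100 (-0.022 to 0.0024) without those 2 peaks. The ratio of cluster peaks was thus lower than that of other interior peaks from 20 to 99 summed reads, and higher from 200 reads on.

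**Figure D3:**
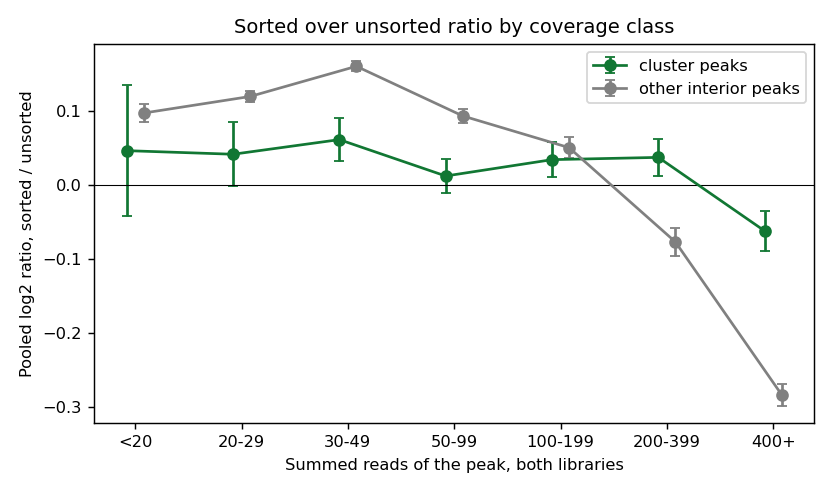
Pooled log2 ratio of sorted over unsorted reads, with 95% counting intervals, by the summed reads of a peak in both libraries, for cluster peaks (green) and other interior peaks (grey). Cluster peaks stay between -0.062 and 0.061, while the others go from 0.16 at 30 to 49 reads to -0.28 at 400 or more.

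Single cluster peaks rarely differed between the libraries. The requirement was a difference of at least 2-fold with a prior count of 0.5, together with 20 or more summed reads and an interval that excluded an equal level. Of the 3215 cluster peaks with 20 reads, 90 were higher in the sorted library (2.80%), against 3.53% of all peaks of the table and 4.42% of other interior peaks. Another 49 were lower (1.52%), against 1.65% and 1.51%. These shares compare peaks of unlike depth, since the median was 45 summed reads over all cluster peaks and 26 over all other interior peaks. They also hold for library totals only. The higher peaks were spread over 78 clusters and the lower ones over 45, with at most 4 and 3 in any cluster. No cluster peak was without reads in either library, and of the 67511 other interior peaks 1 had no unsorted and 1 no sorted reads. Among peaks with 20 or more reads, 53.7% of cluster peaks and 59.6% of other interior peaks had a log2 ratio above 0. Equal counts in both libraries give about 0.030 under library totals, which is above 0.

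Per cluster, reads were pooled and a cluster counted as differing at 1.5-fold with an interval that excluded an equal level. In the sorted library 25 clusters were higher (3.34%) and 16 lower (2.14%). The balance depended on scaling, with 15 higher and 24 lower under TMM factors, 20 and 19 under DESeq2 size factors, and 69 and 6 when the 5000 most covered peaks set the scale. Blocks of 4 successive interior peaks outside clusters, 4 being the median cluster size, served as background. With library totals as the scale, 7.00% of them were higher and 1.23% lower. Block shares under the other scalings were not taken, so all comparisons with blocks hold for library totals only. Of the 41 clusters that differed under library totals, 16 were single peaks and 32 had fewer than 200 summed reads. Among the 299 clusters with at least 200 reads, 8 were higher (2.68%) and 1 was lower (0.334%), against 2.54% and 1.63% of the 1653 blocks with as many reads. The share higher in the sorted library was thus below the background over all clusters and close to it among those with at least 200 reads. The share lower was above the background over all clusters and, with 1 cluster, below it among those with at least 200 reads. Over all clusters the units are unlike in depth, since the 169 clusters of a single peak had a median of 33 reads and the blocks 113. Without the 1.5-fold requirement, 44 of the 299 had an interval above 0 (14.7%, blocks 13.1%) and 38 below 0 (12.7%, blocks 9.74%). Their median number of reads was 357, against 258 in the blocks, which narrows their intervals. Of the 299 clusters, the larger share exceeded the smaller by less than 25% in 79.6%, against 75.5% of the 1653 blocks, which is again a comparison at unlike depth.

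**Figure D4:**
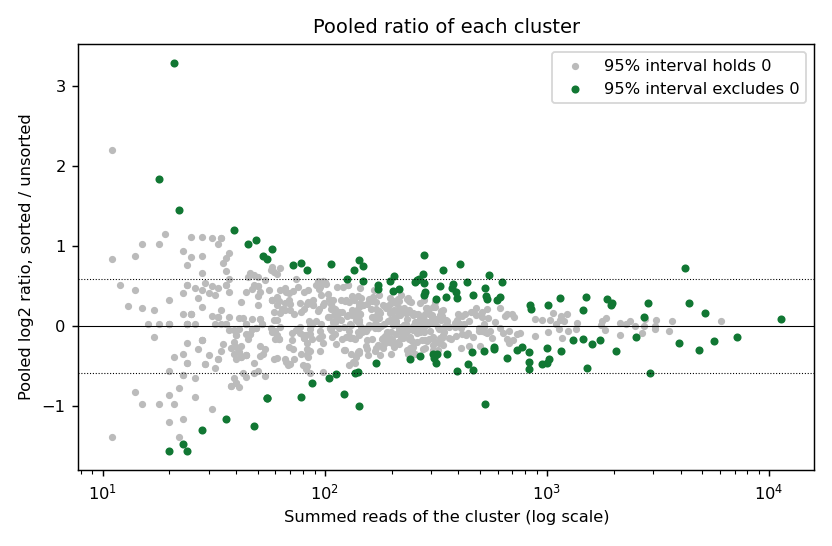
Pooled log2 ratio of sorted over unsorted reads of each of the 748 clusters against its summed reads (log scale). Green points have a 95% counting interval that excludes 0, and dotted lines mark 1.5-fold. Clusters of few reads scatter widely, and among the 299 with at least 200 reads the values run from -0.97 to 0.89.

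Peaks of a cluster varied among themselves by more than counting error, and clusters also differed from each other by more than counting error. The Pearson chi-square over its degrees of freedom, which is 1 under counting error alone, was 1.34 among peaks within clusters and 3.16 among clusters. The same values for the blocks were 1.27 and 1.82. This measure grows with the number of reads per unit, so peaks, clusters and blocks cannot be ranked by it. After counting error was taken off, the standard deviation of the log2 ratio was 0.26 over all cluster peaks of 20 or more reads. It was 0.28 over blocks of 200 or more reads and 0.22 over the clusters of 200 or more reads. Those blocks held 4 peaks each and had a median of 258 reads, against 357 in the clusters, so the values are not like for like. Across these clusters the ratio went partly with that of the surroundings. In the 247 clusters whose flanks, the peaks of no cluster within 50 kb, also held 200 reads, the correlation of the ratios came to 0.315 (Pearson's r) and 0.328 (Spearman's rho). Without the 2 flanks farthest from the median r was 0.310. Neighbouring clusters share flanks, and all points share the same 2 libraries, so these values are a description.

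Among clusters with at least 200 reads, 5 of the 6 highest by the lower bound of their interval lay on chromosome 3. Of all 748 clusters, 94 lay on this chromosome, whose other interior peaks were also above 0, at 0.18. These 5 were mostly neighbours, since all but that from 66217631 lay between 127926165 and 128471836. The cluster from 127926165 to 128000430 held 27 peaks over 74266 bp. Its peaks had between 11 and 256 unsorted reads, with a median of 41, and between 19 and 455 sorted reads, with a median of 70. Every one of the 27 peaks was above 0, from 0.065 to 1.36, so no single peak made the difference. Its peak with the most reads (127945075 to 127945474) counted 256 reads unsorted and 455 sorted, 16.9% of all those in the cluster. In all there were 1604 unsorted and 2599 sorted reads, a log2 ratio of 0.73 (0.64 to 0.82). The 17 flanking peaks had 0.29 (0.079 to 0.49), which is above 0 but lower.

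Further clusters with high ratios followed on the same chromosome. The cluster from 128217030 to 128233455 had 131 unsorted and 209 sorted reads in 8 peaks (0.70, 0.38 to 1.03). The next, from 128311526 to 128335366, had 259 and 370 reads in 11 peaks (0.54, 0.31 to 0.78). That from 128451678 to 128471836 had 100 and 181 reads in 7 peaks (0.89, 0.53 to 1.253), the highest ratio of the 299 clusters with at least 200 reads. Flanking peaks of the clusters from 128217030, 128311526 and 128451678 had 0.21, 0.16 and 0.13, with intervals that held 0. From 127926165 to 128574803 there were 7 clusters, which held 62 peaks, 54 of them above 0, with a pooled ratio of 0.68 (0.60 to 0.75). Most of their reads, 1604 of 2304 unsorted and 2599 of 3611 sorted, came from the first, with 27 peaks, so it weighs most in the pooled value. The 86 other peaks that lay between these clusters had 0.081 (-0.00093 to 0.16), and 52 of them were above 0. In this stretch, chosen after its values were seen, the pooled clusters thus had a higher ratio than the peaks between them. It also set the value of clusters 5 to 10 Mb from a chromosome end, given above. Chromosome 3 cluster peaks had 0.056 (0.020 to 0.092) without this stretch. Elsewhere, a cluster of 6 peaks on chromosome 3 from 66217631 to 66226133 had 152 and 255 reads (0.78, 0.48 to 1.08) with all 6 peaks above 0. Its peaks from 66217631, 66217952 and 66218279 overlap in a row, so some reads could count for both peaks of a pair. The 6 flanking peaks of this cluster had 0.74 (0.30 to 1.18). On chromosome 6, the cluster from 111157901 to 111168104 had 218 and 331 reads in 5 peaks (0.63, 0.38 to 0.89). Its 17 flanking peaks had 0.26 (0.068 to 0.45).

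The lowest of the 299 clusters with at least 200 reads was made of peaks that disagreed. It lay on chromosome 2 from 8238477 to 8248095, with 350 unsorted and 175 sorted reads in 6 peaks (-0.97, -1.24 to -0.70). The first 4 peaks, of which the last begins 3.79 kb into the cluster, had 59, 66, 65 and 97 unsorted reads and 18, 18, 36 and 28 sorted reads. The last 2, which begin 8.30 and 9.22 kb into the cluster, had 29 and 34 unsorted and 34 and 41 sorted reads. The first 4 peaks were below 0 and the last 2 above it, and the chi-square over its degrees of freedom, 8.64, was the highest of the 274 clusters with at least 6 peaks. The 7 peaks flanking this cluster had -0.14 (-0.47 to 0.18). A cluster on chromosome 3 from 19400467 to 19415331 had most of its reads in 1 peak. That peak (19403543 to 19403942) counted 1497 reads unsorted and 959 sorted (-0.61, -0.73 to -0.49), which is 84.7% of the reads of its 9 peaks. The other 8 peaks had 255 and 188 reads and were also below 0 when pooled (-0.41, -0.69 to -0.13). Of these reads, 91 and 44 lay in the next peak, from 19404003 (-1.01, -1.57 to -0.48). The 9 flanking peaks had -0.14 (-0.45 to 0.16).

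In 4 further low clusters, most or all peaks were below 0. On chromosome 2, the cluster from 41831473 to 41842897 had 898 and 612 reads (-0.52, -0.67 to -0.37), with 9 of 10 peaks below 0, and its 8 flanking peaks had -0.43 (-0.74 to -0.13). The cluster from 33598949 to 33605295 of the same chromosome had 493 and 334 reads in 5 peaks, all below 0 (-0.53, -0.74 to -0.33). On chromosome 4, from 32749383 to 32757017, 586 and 417 reads lay in 6 peaks, all below 0 (-0.46, -0.65 to -0.28). On chromosome 6, from 59136656 to 59161162, 555 and 393 reads lay in 11 peaks, 7 of them below 0 (-0.47, -0.66 to -0.28). These 4 clusters were under 1.5-fold. The other flanks were not low. Flanking peaks had -0.032 (-0.36 to 0.29) around the cluster from 33598949 and 0.28 (-0.30 to 0.87) around that from 32749383. Around the cluster from 59136656 they had 0.19 (-0.14 to 0.52).

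The 6 clusters with the most peaks lay close to an equal level when library totals set the scale. With the 5000 most covered peaks as the scale, all but the one on chromosome 7 had 0.16 to 0.25, with intervals above 0. The largest 2 had 36 peaks each. That on chromosome 4, from 36944963 to 37029516, also had the most reads, 5549 unsorted and 5782 sorted (0.090, 0.036 to 0.14). Its peaks had a median of 144 unsorted and 138 sorted reads, and 24 of the 36 were above 0. That on chromosome 2, from 98920120 to 98983783, had 1555 and 1526 reads (0.0031, -0.10 to 0.11), with 18 of 36 peaks above 0. A gap of 11112 bp separated it from a cluster of 33 peaks from 98841789 to 98909007, which had 1804 and 1849 reads (0.066, -0.029 to 0.16). Together with the cluster that follows, they formed a chain of 75 peaks over 181382 bp. The cluster of 33 peaks on chromosome 6, from 29647797 to 29710155, had 2995 and 3062 reads (0.062, -0.011 to 0.14). Its 5 flanking peaks had a median of 32 summed reads, against 170 within it, but were uneven, with 215 unsorted and 288 sorted reads in all. The cluster of 31 peaks on chromosome 5, from 37165964 to 37216209, had 1134 and 1129 reads (0.024, -0.096 to 0.14). The cluster of 32 peaks on chromosome 7, from 97068242 to 97146593, stood slightly below 0, with 1335 and 1186 reads (-0.14, -0.25 to -0.027).

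The clusters with the most reads per peak were small, and most lay in stretches where the peaks around them were heavily covered too. On chromosome 2, 3 clusters from 102084470 to 102176678 held 18 peaks with 7862 unsorted and 6571 sorted reads, 802 summed reads per peak. All 18 peaks were below 0 and the pooled ratio was -0.23 (-0.28 to -0.18). In the cluster from 102165525 to 102176678, the 7 peaks had between 308 and 719 unsorted and between 234 and 669 sorted reads. Flanking peaks of these 3 clusters had medians of 677, 724 and 730.5 summed reads, and their ratios were also below 0, from -0.34 to -0.17. These 18 peaks made up part of the 73 cluster peaks with at least 400 reads, whose ratio without them was 0.015 (-0.017 to 0.047). On chromosome 1, the cluster from 47032575 to 47039819 had 1352 and 1404 reads in 5 peaks (0.085, -0.024 to 0.19). Its 13 flanking peaks had a median of 214 but 5391 unsorted and 5988 sorted reads in all, so some were covered far more heavily. A single peak beside this cluster (47069953 to 47070352) counted 222 reads unsorted and 303 sorted (0.48, 0.22 to 0.74). On chromosome 4, 7 peaks from 36917360 to 36929809 had 1520 and 1575 reads (0.082, -0.021 to 0.18). They lay 15153 bp before the cluster with the most reads, and their flanking peaks had a median of 302.

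Some well covered clusters had a median per peak far above that of their flanking peaks. On chromosome 5, 19 peaks from 36078925 to 36108420 had between 117 and 317 unsorted and between 87 and 294 sorted reads. The flanking peaks there had a median of 51 summed reads, against 352 in the cluster. It held 3774 unsorted and 3377 sorted reads (-0.13, -0.20 to -0.063), and 14 of its 19 peaks were below 0. On chromosome 4, 15 peaks from 72495963 to 72523492 had 2446 and 2689 reads (0.17, 0.087 to 0.25), with a median of 305 per peak against 58 in the flanks. The 8 flanking peaks there were uneven, with 999 unsorted and 1072 sorted reads in all, so the median hides heavily covered ones. For each of the 299 clusters with at least 200 reads, the median reads per peak were divided by the median of the flanking peaks. The median of these ratios was 1.44. The clusters were chosen here by their own reads and the flanks were not, which by itself can raise this value. The evenness of coverage inside clusters of at least 6 peaks varied, with a median coefficient of variation of summed reads of 0.358 and a range of 0.102 to 2.49.

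**Figure D5:**
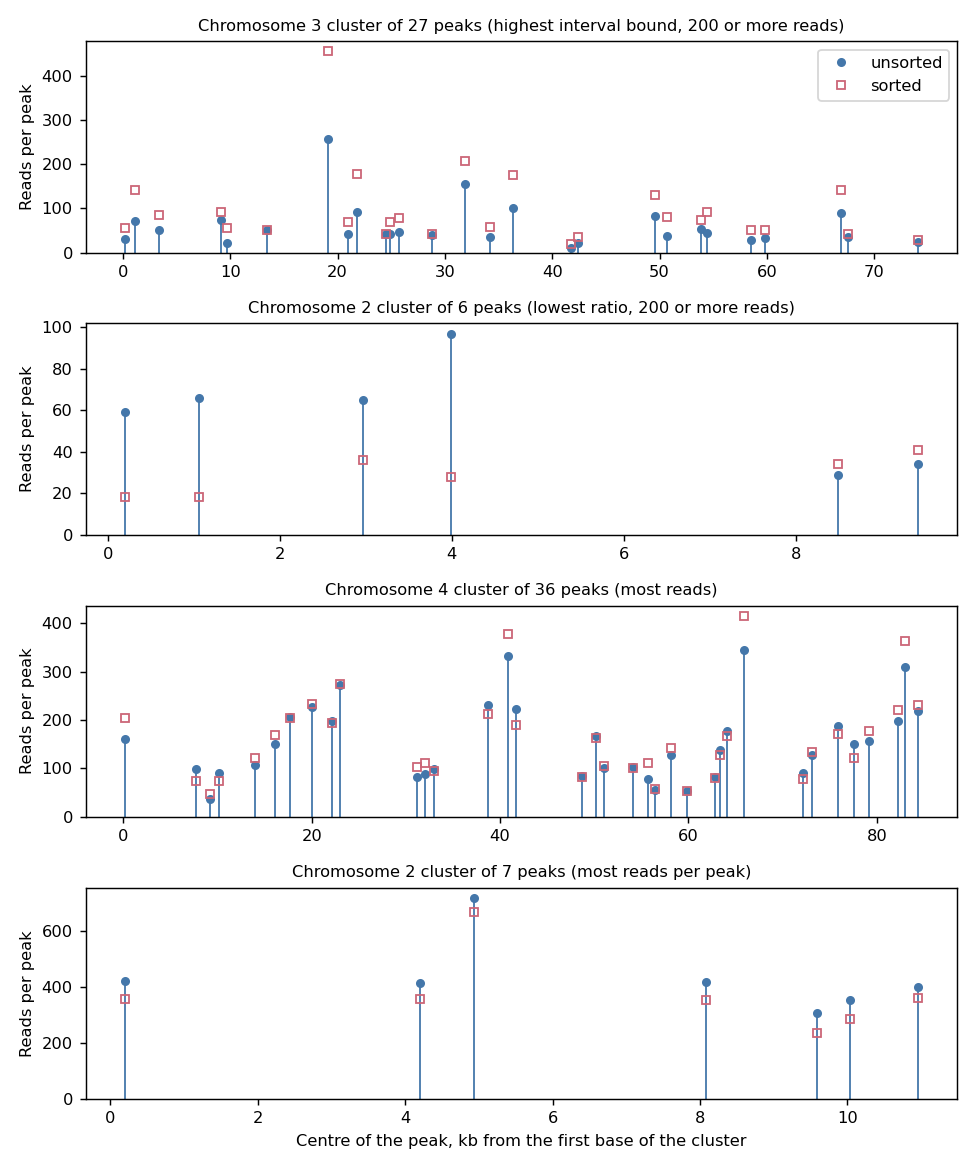
Reads per peak in the unsorted (blue circles with stems) and sorted (red open squares) library along 4 clusters, by distance of the peak centre from the first base of the cluster in kb. From top to bottom these are the chromosome 3 cluster of 27 peaks with 1604 unsorted and 2599 sorted reads, the chromosome 2 cluster with the lowest ratio among those of at least 200 reads, whose last 2 peaks do not share it, the chromosome 4 cluster with the most reads, and the chromosome 2 cluster with the most reads per peak.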

How the data were processed

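The values are raw counts as deposited: whole numbers of reads for each peak of 1 shared peak set, in 1 column per library, per the file headers. The submitters' processing notes name, without versions or order, the peak caller MACS2, the counter featureCounts, the aligners Bowtie and Bowtie2, SAMtools and Trim Galore. Neither the build nor the assay is given in the sources used here, and the same holds for how duplicate and multiply mapping reads were treated, which could raise the counts of clusters. Every peak with a position was 400 bp wide, so a wide enriched stretch can be cut into several peaks, and 548 peaks had no position. The last peak of chromosome 1 ended at 194891458 and the last gene of the table at hand, of assembly UCB_Xtro_10.0, at 217419418, so no peak was assigned to a gene and no sequence is shown.

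Scaling used the sum of all peak reads in each library. Reads were pooled per cluster, and the share of sorted reads got an exact Clopper-Pearson 95% interval, written as a log2 ratio. Ratios of single peaks had a prior count of 0.5 added. With 1 library per group, intervals cover counting error only. The reads carry no known molecular identifiers, so duplicate reads could not be set apart and the intervals may be too narrow. Clusters were named by position: the 6 with the most peaks, with the most reads and with the most reads per peak, and, among those with at least 200 reads, the 6 highest and 6 lowest by the interval bound nearest to 0. The members and lists were chosen with earlier results of these data known. Flanks, chains of clusters under 50 kb apart and the chromosome 3 stretch were chosen after seeing the data. The scripts were tested on simulated data. Alternatives were other scalings (TMM of edgeR 4.0.16, size factors of DESeq2 1.42.0), windows, thresholds and left-out peaks. Python 3.11.15, NumPy 2.4.6, SciPy 1.17.1, pandas 2.3.3 and R 4.3.3 were used.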

Additional observations from a re-analysis of the deposited data

How the results depend on the processing

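The other scalings add 1 constant to all log2 ratios, so the difference between cluster peaks and other interior peaks was the same under each. The pooled log2 ratio of cluster peaks became 0.18 when the 5000 most covered peaks set the scale, -0.012 under the size factors of DESeq2, -0.049 under TMM and -0.0054 without the 1000 most covered peaks. It was 0.055 with 8 or more other peaks required and 0.0039 without the chromosome 3 stretch. The difference from other interior peaks was 0.018 within classes of coverage and -0.0100 there without the 2 most covered other interior peaks. It was -0.096 with a 20 kb window, -0.025 with 8 or more other peaks, -0.094 more than 10 Mb from the outermost peaks, -0.083 without the chromosome 3 stretch and -0.084 without the 2 most covered other interior peaks.

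The number of clusters was 140 with a 5 kb window, 3933 with 20 kb, 81 with 8 or more other peaks and 299 with at least 200 reads, which follows from the construction. Higher clusters numbered 15 with TMM factors, 69 with the 5000 most covered peaks, 1 with a 5 kb window, 155 with 20 kb, 4 with 8 or more other peaks, 15 at over 10 Mb, 8 with at least 200 reads, 54 at a 25% excess, 6 at 2-fold, 13 with a 99% interval and 15 without the most covered peak of each cluster. Lower clusters numbered 24 with TMM factors, 6 with the 5000 most covered peaks, 3 with 5 kb, 59 with 20 kb, 4 with 8 or more other peaks, 1 with at least 200 reads, 38 at a 25% excess, 7 at 2-fold, 4 with a 99% interval and 6 without the most covered peak of each cluster. Apart from the setting of at least 200 reads, blocks were not examined in these settings, so the counts have no background share beside them. Differing cluster peaks numbered 41 with at least 50 reads, 64 with a prior count of 5 and 261 at 1.5-fold.

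The ratio of mean reads per peak was 2.88 with 5 kb, 1.68 with 20 kb, 3.83 with 8 or more other peaks, 2.62 at over 10 Mb, 2.37 without overlapping peaks, 2.11 without the most covered peak of each cluster, 2.06 without the 1000 most covered peaks and 2.30 without the 2 most covered other interior peaks, and 1.73 as a ratio of medians. The chi-square over degrees of freedom within clusters was 1.47 with 8 or more other peaks, and between clusters 3.67 with 5 kb, 2.32 with 20 kb and 4.76 with 8 or more other peaks. Of 103 values of the 26 named clusters under alternatives, 16 moved out of their interval on the same side of 0. Another 2, whose interval had excluded 0, moved out of it and turned, both with the 5000 most covered peaks. These were chromosome 5 from 36078925 (0.027) and chromosome 7 from 97068242 (0.017). Under that scaling the intervals of chromosome 2 from 102130150 (-0.054) and from 102165525 (-0.026) came to include 0, as did that of chromosome 4 from 36944963 (0.023) under TMM. With the 5000 most covered peaks, other intervals that had held 0 came to lie above it. These were chromosome 1 from 47032575 (0.24), chromosome 2 from 98841789 (0.22) and from 98920120 (0.16), and chromosome 4 from 36917360 (0.24). The same held for chromosome 5 from 37165964 (0.18) and chromosome 6 from 29647797 (0.22). For the other changes the cause was not tested. Small clusters are limited by depth, since the median cluster had 143 summed reads. No paired analysis was possible because there was 1 library per condition.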
